A study of Apostichopus japonicus with 3 samples.

Results

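Secreted proteases and protease inhibitors were followed through summer dormancy in the respiratory tree of the sea cucumber Apostichopus japonicus. The set holds every isotig, that is every assembled transcript, whose best protein match names a metalloprotease, an angiotensin-related protein, a trypsin or other serine protease, an astacin, a carboxypeptidase, an aminopeptidase or a protease inhibitor. It has 94 isotigs of 20991 with a read in any library, and 53 of them had the minimum of 20 reads summed over the 3 libraries used for comparisons, of 10896 such isotigs in all. Poly(A) RNA of the organ was sequenced at 3 stages, with 1 library each: non-aestivation, deep aestivation and arousal. At least 15 individuals were used per stage, and whether their RNA was pooled is not stated. No stage has a replicate, so each comparison is between libraries and no p-value was computed. The labels give no genotype, sex, age or treatment.

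Extracellular proteases cut matrix proteins, peptide hormones, cell surface receptors and food proteins, and most are made as inactive precursors that other proteases switch on. Their activity is held down by inhibitors that block the active site, as Kazal-type inhibitors, cystatins and tissue inhibitors of metalloproteinases do, or that trap the whole enzyme, as alpha-2-macroglobulin does. The body wall and inner organs of sea cucumbers are rich in collagen, and the respiratory tree is a thin-walled, muscular and ciliated organ in the body cavity. Roles stated for single proteins are those known from vertebrates or insects, since the names come from matches to proteins of other animals in all but 4 members. The match was to the sea urchin Strongylocentrotus purpuratus for 43 members and to the acorn worm Saccoglossus kowalevskii for 17.

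Levels are given as reads and as RPKM, reads per kilobase of isotig and per 1e6 uniquely mapped reads, in the order non-aestivation, deep aestivation and arousal. The threshold for calling an isotig higher or lower was 2-fold, a difference of 1 or more in log2(RPKM + 0.5). "Rose" and "fell" are used only where, in addition, the exact 95% interval of the ratio of read rates left out 1. These intervals cover counting error, not differences between animals or library preparations. The libraries held 0.941 M, 0.887 M and 0.963 M uniquely mapped reads (M, 1e6), and 1 read on an isotig of 1 kb was worth 1.06, 1.13 and 1.04 RPKM. In bulk tissue, fewer cells of a type and less RNA per cell cannot be told apart.

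The set took a nearly constant share of the reads, namely 0.712% (exact binomial 95% interval 0.695 to 0.729) at non-aestivation, then 0.685% (0.668 to 0.703), and 0.722% (0.705 to 0.739) at arousal. Its make-up differed between stages. A trypsin-like serine protease grew from 0.192% to 0.274% and 0.447% of all reads, while the Kazal-type inhibitor isotigs went from 0.147% to 0.0485% and 0.000831%. Without the trypsin-like isotig, the summed read rate of the other 93 members dropped 1.27-fold from non-aestivation to deep aestivation (1.21 to 1.32) and 1.497-fold more to arousal (1.42 to 1.57). The Kazal-type isotigs carried the first of these drops: over the 91 members left without them, deep aestivation over non-aestivation was 0.971 (0.925 to 1.02). The second drop was 1.32-fold over the same 91 (1.26 to 1.395).

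**Figure D1:**
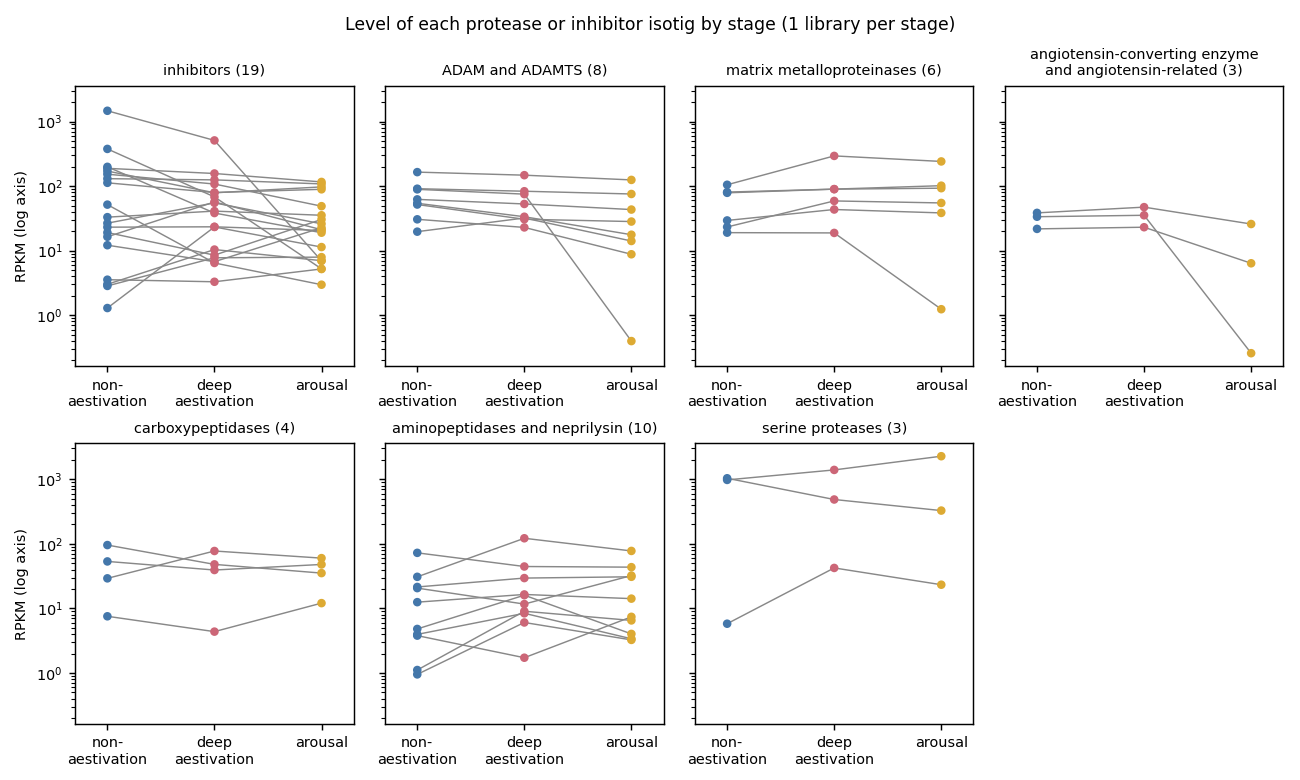
RPKM (log axis) of each of the 53 protease and inhibitor isotigs with at least 20 reads at the 3 stages, with 1 line per isotig and 1 panel per role class, the number of isotigs in parentheses. Steep drops at arousal are seen for 1 isotig each among ADAM and ADAMTS, matrix metalloproteinases and the angiotensin-related class, and for both Kazal-type isotigs among the inhibitors.

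In deep aestivation against non-aestivation, 13 of the 53 compared members were higher and 7 lower. That is 24.5% and 13.2% of them, beside 13.1% of all 10896 isotigs higher and 18.6% lower. Among the 5686 compared isotigs that have a protein match, as every member has, 8% were higher and 24.2% lower. The members' median log2 ratio was -0.01, beside -0.12 over all isotigs and -0.36 over those with a protein match. Centring ratios on isotigs with a protein match, chosen after seeing the data, gave 15 members higher (28.3%) and 4 lower (7.55%). Their median was then 0.34, beside 0.24 over all isotigs. This centring also moved the background, to 21.4% higher and 11.6% lower over all isotigs and 13.6% and 15.4% over matched ones. The interval also left out 1 for all 13 that were higher and for 6 of the 7 that were lower, beside 10.6% and 15% of all isotigs and 6.35% and 20.2% of matched ones.

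In arousal against deep aestivation the balance was the other way, with 5 members higher and 15 lower, 9.43% and 28.3%. The background was 8.06% higher and 8.93% lower over all isotigs, and 7.63% and 9.71% over those with a protein match. The median log2 ratio was -0.36 for members, -0.00 over all isotigs and -0.07 over matched ones. Of the calls, 5 higher and 10 lower also had an interval that left out 1, 9.43% and 18.9% of members beside 4.86% and 5.52% of all isotigs and 4.52% and 6% of matched ones.

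Arousal and non-aestivation differed in 11 higher and 13 lower members, 20.8% and 24.5%, beside 12.5% and 18.8% of all isotigs and 6.68% and 25.6% of matched ones. The lower share of members lay near that of matched isotigs. With the interval, 9 were higher and 12 lower, beside 10.2% and 15.4% of all isotigs and 5.21% and 21.6% of matched ones. The members' median was -0.17, beside -0.13 and -0.40, and the centring on matched isotigs turned its sign, to 0.24. That centring put the median of all isotigs at 0.27. The 3 comparisons share libraries, so their counts are not independent. Over the 3 comparisons, 33 of 53 members (62.3%) rose or fell at least once, beside 39.2% of all isotigs and 40.3% of matched ones, and 20 did so in none.

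**Figure D2:**
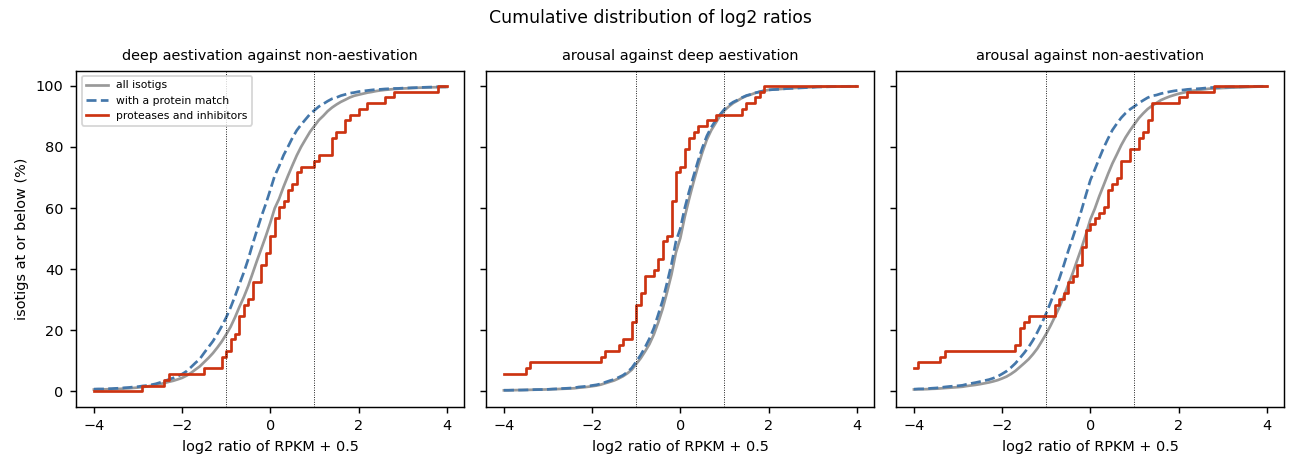
Cumulative share (%) of isotigs at or below each log2 ratio of RPKM + 0.5 in the 3 comparisons, for the 53 compared proteases and inhibitors, the 5686 isotigs with a protein match and all 10896 isotigs; dotted lines mark 2-fold, and ratios beyond 4 in either direction lie off the axis. In deep aestivation the proteases and inhibitors lie to the right of the matched isotigs between log2 ratios of about -1.9 and 3.7, and in arousal against deep aestivation they lie to the left up to a log2 ratio near 1.

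The inhibitors formed the largest class, with 25 isotigs, 19 of them compared. Summed over the class, reads numbered 2653, 1348 and 844, a rate that dropped 1.85-fold from non-aestivation to deep aestivation (1.74 to 1.98) and a further 1.73-fold to arousal (1.59 to 1.89). Isotigs of the class went both ways, with 5 rising and 5 falling in deep aestivation. Of the 5 rising, 3 were inter-alpha-trypsin inhibitor heavy chains, placed in the class by their name. Without the Kazal-type isotigs the class was 1.31-fold (1.199 to 1.42) and 1.19-fold lower (1.08 to 1.31).

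Kazal-type inhibitors are small secreted proteins that block serine proteases such as trypsin and subtilisin. Isotig18647 had 1240, 406 and 6 reads, which is 1467, 509.6 and 6.94 RPKM. Isotig13024 had 141, 24 and 2 reads, which is 376, 68.0 and 5.22 RPKM. Both fell at each step, so that the order of the stages was the same on both. Both matched the same protein of the mitten crab Eriocheir sinensis, with E-values of 1.4241e-23 and 5.80671e-27. They were the only compared members that fell in all 3 comparisons. Summed over both, the read rate dropped 3.03-fold at deep aestivation (2.71 to 3.38) and then 58.3-fold at arousal (29.3 to 136). Reads covered 97.9%, 98.8% and 22.4% of the bases of isotig18647, and 81.2%, 71.6% and 24.6% of isotig13024.

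Alpha macroglobulins are large plasma proteins that trap proteases of all classes, and relatives of complement component 3. All 5 isotigs of the family were highest in non-aestivation and lowest in arousal, and summed to 745, 439 and 340 reads, or 721.5, 434 and 295 RPKM. Isotig16383 had 215, 39 and 21 reads, and fell 5.196-fold in deep aestivation (3.68 to 7.51). Isotig00220, with the same name, had 34, 4 and 2 reads and fell 8.01-fold (2.86 to 31.1). The alpha macroglobulin named from the scallop Chlamys farreri (isotig20871) had 104, 69 and 34 reads. It fell at arousal instead, 2.20-fold against deep aestivation (1.44 to 3.43). The remaining pair stayed within 2-fold throughout: isotig15571 had 227, 178 and 143 reads and isotig15279 had 165, 149 and 140. The family thus held 2 isotigs low from deep aestivation on, 1 that fell at arousal and 2 with small differences.

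Tissue inhibitors of metalloproteinases (TIMPs) block matrix metalloproteinases and some ADAM proteases by binding their active-site zinc. The 8 isotigs summed to 388, 306 and 309 reads, with ratios of 0.837 (0.718 to 0.975) for deep aestivation over non-aestivation and 0.930 (0.792 to 1.09) for arousal over deep aestivation. Single isotigs differed more than the sum. Isotig15867 had 19, 62 and 25 reads, rose 3.46-fold in deep aestivation (2.04 to 6.13) and fell 2.69-fold at arousal (1.67 to 4.47). Isotig19521 had 1, 17 and 9 reads and rose 18.0-fold (2.83 to 754) on little depth. Isotig19926 went the other way, with 129, 56 and 75 reads, and fell 2.17-fold in deep aestivation (1.57 to 3.03), a call that median-of-ratios scaling puts just inside 2-fold and the centring on matched isotigs at a ratio of 0.590. The most abundant TIMP isotig, isotig13605, had 207, 138 and 168 reads and stayed within 2-fold, as did isotig10747 and isotig13286.

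Inter-alpha-trypsin inhibitor heavy chains are secreted proteins that in mammals bind the matrix polysaccharide hyaluronan. All 3 compared isotigs rose in deep aestivation. Isotig21059 had 18, 35 and 18 reads, rose 2.06-fold (1.14 to 3.87) and fell 2.11-fold at arousal (1.16 to 3.96), a fall that the centring on matched isotigs puts just inside 2-fold. Isotig04207 had 8, 26 and 19 reads and rose 3.45-fold (1.52 to 8.81), and isotig04208 had 7, 18 and 20 reads and rose 2.73-fold (1.09 to 7.73). Over the 5 isotigs of the family the rate was 2.02-fold higher in deep aestivation (1.37 to 3.01).

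Inhibitors of cysteine proteases, the class of cathepsins B and L, had 4 isotigs that went different ways. The cystatin-like peptide (isotig05377) had 21, 11 and 40 reads and rose 3.35-fold at arousal (1.69 to 7.24). Isotig05376, of the same name, went the other way with 2, 10 and 0 reads, and isotig05378 had 2, 2 and 0. Over the 3 isotigs the ratio was 1.60 (0.936 to 2.80), so that the rise is that of 1 isotig. Leukocyte cysteine proteinase inhibitor 1 (isotig17047), a cytosolic protein of the stefin family in the pig, had 19, 8 and 31 reads and rose 3.57-fold (1.61 to 8.99). A protein with WAP, Kazal, immunoglobulin, Kunitz and NTR domains (isotig14039), a set of inhibitor domains, had 53, 62 and 58 reads and stayed within 2-fold.

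**Figure D3:**
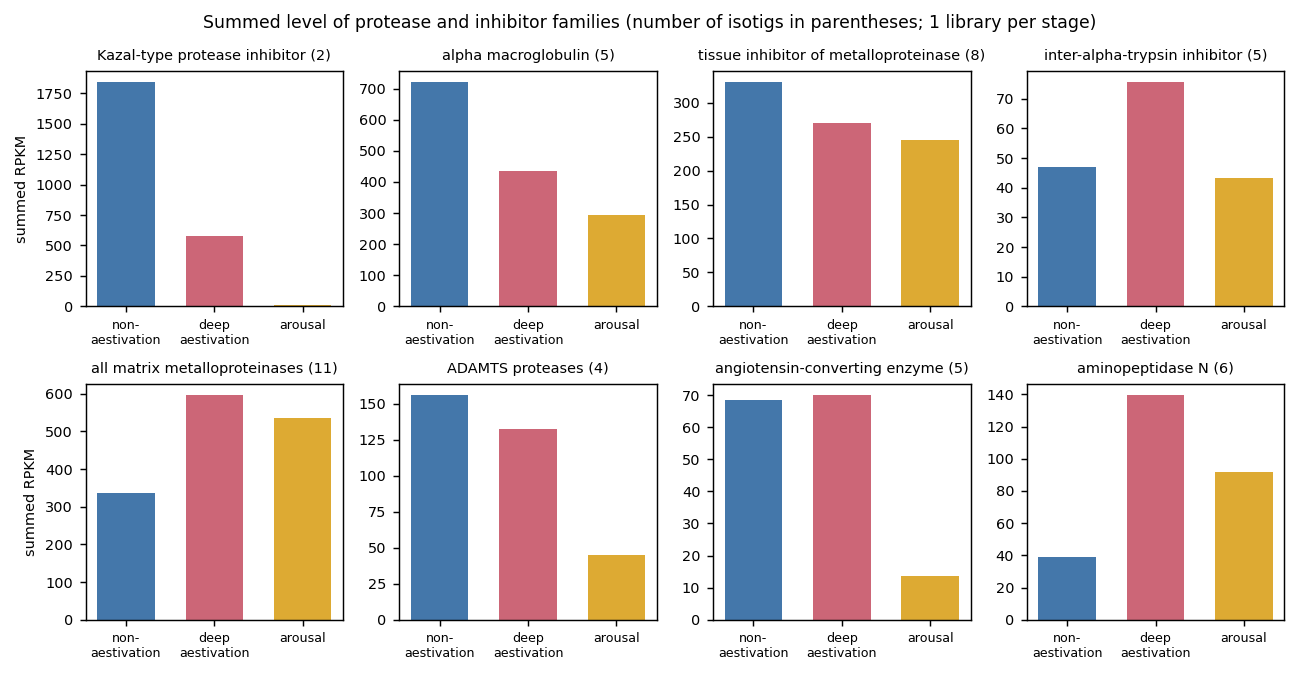
Summed RPKM of 8 protease and inhibitor families at the 3 stages, 1 library per stage, with the number of isotigs in parentheses and a separate axis from 0 in each panel. The Kazal-type bars are 1843, 578 and 12.2 RPKM, while matrix metalloproteinases and aminopeptidase N are higher in deep aestivation and arousal than in non-aestivation.

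Matrix metalloproteinases cut collagens and other matrix proteins, and the membrane-type members sit on the cell surface and also switch on other metalloproteinases. Their 11 isotigs summed to 389, 637 and 628 reads, 1.74-fold higher in deep aestivation than in non-aestivation (1.53 to 1.98). In arousal the ratio to deep aestivation was 0.908 (0.812 to 1.02). The summed level of these proteases was 338, 597 and 536 RPKM, beside 331, 270.3 and 244 RPKM for the TIMPs.

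The difference came mainly from a pair of isotigs named for membrane-type enzymes. Matrix metalloproteinase 16 (isotig11251) had 94, 248 and 221 reads and was still 2.298-fold higher in arousal than in non-aestivation (1.80 to 2.96). Matrix metalloproteinase 24 (isotig13867) had 39, 93 and 94 reads, rose 2.53-fold in deep aestivation (1.72 to 3.78) and stayed 2.36-fold above non-aestivation in arousal (1.61 to 3.52). In both, deep aestivation and arousal did not differ by 2-fold. Both other compared isotigs named matrix metalloproteinase 16 were near level, at 121, 130 and 146 reads on isotig14227 and 42, 44 and 54 on isotig24202. Matrix metalloproteinase 19 (isotig13187), a secreted enzyme, had 74, 103 and 99 reads, a ratio of 1.48 in deep aestivation (1.08 to 2.02). Matrix metalloproteinase 14 (isotig19398), which in mammals activates another collagen-cutting metalloproteinase, had 15, 14 and 1 reads and fell 15.2-fold at arousal (2.31 to 643). Summed with the isotigs named membrane-type matrix metalloproteinase 1, another name of this enzyme, reads numbered 18, 16 and 4 and the drop was 4.34-fold (1.40 to 17.8).

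ADAM proteases are membrane proteins that shed the outer parts of other surface proteins, and ADAMTS proteases are their secreted relatives, which act on matrix proteins. No compared isotig of this class rose or fell in deep aestivation. ADAM10, which cuts Notch and other receptors, was the most abundant, with 413, 349 and 320 reads on isotig13190, and stayed within 2-fold in each comparison. The 4 compared isotigs named only as ADAM also stayed within 2-fold in deep aestivation. Of these, isotig19726 had 15, 23 and 11 reads and fell 2.27-fold at arousal (1.06 to 5.16), while isotig23308, with 17, 12 and 5 reads, was lower in arousal than in non-aestivation, 3.48-fold (1.23 to 12.1).

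ADAMTS7, which in mammals cuts cartilage and vessel wall matrix proteins, had 219, 174 and 1 reads on isotig13208, or 89.0, 75.03 and 0.397 RPKM. Its match was to a chicken protein with an E-value of 5.52738e-154. Reads covered 97.5% and 87.4% of its 2614 bases in non-aestivation and deep aestivation and 1.87% in arousal. ADAMTS2, the procollagen-processing enzyme of mammals, had 45, 36 and 32 reads on isotig20219, a log2 ratio of -0.29 at arousal. The 4 ADAMTS protease isotigs summed to 270, 217 and 35 reads and were 6.73-fold lower in arousal than in deep aestivation (4.69 to 9.91). ADAMTS-like protein 1 (isotig26062), a relative without the protease domain, had 24, 14 and 8 reads and was 3.07-fold lower in arousal than in non-aestivation (1.33 to 7.90).

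Angiotensin-converting enzyme is a peptidase of the cell surface that in mammals makes angiotensin II and inactivates bradykinin. Isotig07116 had 127, 126 and 1 reads, or 33.5, 35.3 and 0.258 RPKM. Another isotig with this name (isotig25710) had 10, 10 and 3 reads, and the remaining 3 had 13 reads or fewer each. Over all 5 the sums were 149, 143 and 7 reads, so that the rate was 22.2-fold lower in arousal than in deep aestivation (10.5 to 56.1). Reads covered 42.65% and 38.9% of isotig07116 in the first 2 stages and 1.22% in arousal. Type-1 angiotensin II receptor-associated protein (isotig18770), which is no protease and entered by its name, had 32, 37 and 22 reads and stayed within 2-fold.

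ADAMTS7, angiotensin-converting enzyme, matrix metalloproteinase 14 and both Kazal-type inhibitors therefore shared the lowest stage, arousal. That stage was the lowest for 26 of the 53 compared members (49.1%), these isotigs among them, beside 40.9% of matched and 33.2% of all isotigs. The 3 proteases stood at like levels in non-aestivation and deep aestivation, with deep aestivation over non-aestivation ratios of 0.843 (0.687 to 1.03), 1.05 (0.816 to 1.36) and 0.990 (0.443 to 2.20). The Kazal-type isotigs were already lower in deep aestivation.

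**Figure D4:**
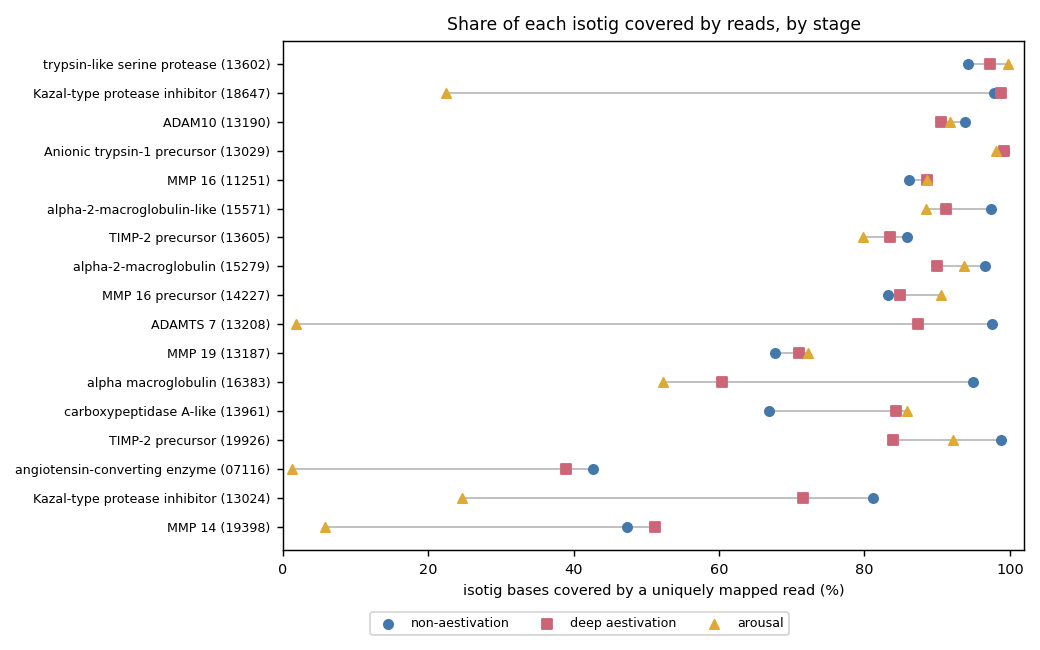
Share (%) of the bases of an isotig covered by a uniquely mapped read at each stage, for the 14 proteases and inhibitors with most reads, then angiotensin-converting enzyme, which is also among the 15 most read, and the Kazal-type isotig13024 and matrix metalloproteinase 14. ADAMTS7 and angiotensin-converting enzyme keep 1.87% and 1.22% in arousal, and ADAM10 stays above 90% at each stage.

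Aminopeptidases remove amino acids from the start of peptides, and aminopeptidase N does so on the surface of gut, kidney and blood cells in mammals. The 6 isotigs named for aminopeptidase N, also called membrane alanine aminopeptidase, summed to 42, 161 and 121 reads. This was 4.07-fold higher in deep aestivation than in non-aestivation (2.88 to 5.86), and arousal stood at 0.692 of deep aestivation (0.542 to 0.882). All 3 compared isotigs rose in deep aestivation. Isotig16462 had 33, 123 and 85 reads and rose 3.95-fold (2.67 to 5.998). Isotig05197 had 3, 23 and 18 reads and rose 8.13-fold (2.46 to 42.3), and isotig05199 had 2, 12 and 7 reads and rose 6.37-fold (1.42 to 58.6). The latter share their protein name with isotig05198, which had 0, 2 and 10 reads, and over these 3 isotigs the ratio was 7.85 (3.08 to 25.6).

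Glutamyl aminopeptidase (isotig13445), which in mammals cuts angiotensin II, had 25, 31 and 29 reads and stayed within 2-fold. The other compared aminopeptidases are known as enzymes of the cell interior. Methionine aminopeptidase 1, which trims new proteins, had 34, 44 and 50 reads on isotig08891. On isotig08892 it had 7, 22 and 6, a rise of 3.33-fold in deep aestivation (1.38 to 9.24) and a fall of 3.98-fold at arousal (1.57 to 12.0). Summed over its 2 isotigs the ratios were 1.71 (1.14 to 2.59) and 0.782 (0.538 to 1.13). Leucine aminopeptidase 3 rose 4.30-fold at arousal on isotig08604 (1.1999 to 23.3), with 7, 3 and 14 reads, but its 2 isotigs summed to 15, 19 and 21. Xaa-Pro aminopeptidase 1 (isotig11719) had 15, 8 and 24 reads and rose 2.76-fold at arousal (1.201 to 7.12). Aspartyl aminopeptidase (isotig19421) had 57, 33 and 35 reads and stayed within 2-fold.

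Carboxypeptidases remove amino acids from the other end. Carboxypeptidase A-like (isotig13961), named for a digestive zinc enzyme of vertebrates, had 48, 120 and 101 reads. It rose 2.65-fold in deep aestivation (1.88 to 3.79) and was 2.06-fold higher in arousal than in non-aestivation (1.44 to 2.96). Prolylcarboxypeptidase (isotig17274), a serine enzyme of lysosomes, had 93, 44 and 35 reads and was 2.72-fold lower in arousal than in non-aestivation (1.82 to 4.13). The isotig named carboxypeptidase, vitellogenic-like (isotig07514) had 11, 6 and 18 reads and rose 2.76-fold at arousal (1.05 to 8.51), and summed with its second isotig the ratio was 1.51 (0.746 to 3.18). Retinoid-inducible serine carboxypeptidase (isotig17820) had 49, 34 and 45 reads and stayed within 2-fold.

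Serine proteases of the trypsin fold digest proteins in the gut and also work in clotting and complement cascades. The trypsin-like serine protease (isotig13602) is the only compared member matched to a protein of Apostichopus japonicus itself, with an E-value of 5.85023e-49. It had 1808, 2433 and 4306 reads, or 978, 1396 and 2277 RPKM. Each step stayed under 2-fold, at 1.43 (1.34 to 1.52) and 1.63 (1.55 to 1.71), and arousal was 2.33-fold above non-aestivation (2.20 to 2.46). Anionic trypsin-1 (isotig13029), a pancreatic digestive enzyme in vertebrates, went the other way, with 362, 160 and 117 reads or 1037, 486 and 327.5 RPKM. It fell 2.13-fold in deep aestivation (1.77 to 2.58), which TMM scaling puts just inside 2-fold at a log2 ratio of -0.98 and the centring on matched isotigs at -0.73, and arousal was 3.17-fold below non-aestivation (2.56 to 3.93). At non-aestivation both stood at about the same RPKM, and at arousal the trypsin-like isotig stood far above. Neurotrypsin, a secreted protease of mammalian synapses, had 9, 62 and 37 reads on isotig14143. It rose 7.31-fold in deep aestivation (3.61 to 16.7), but the match was weak, with an E-value of 6.24579e-06.

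**Figure D5:**
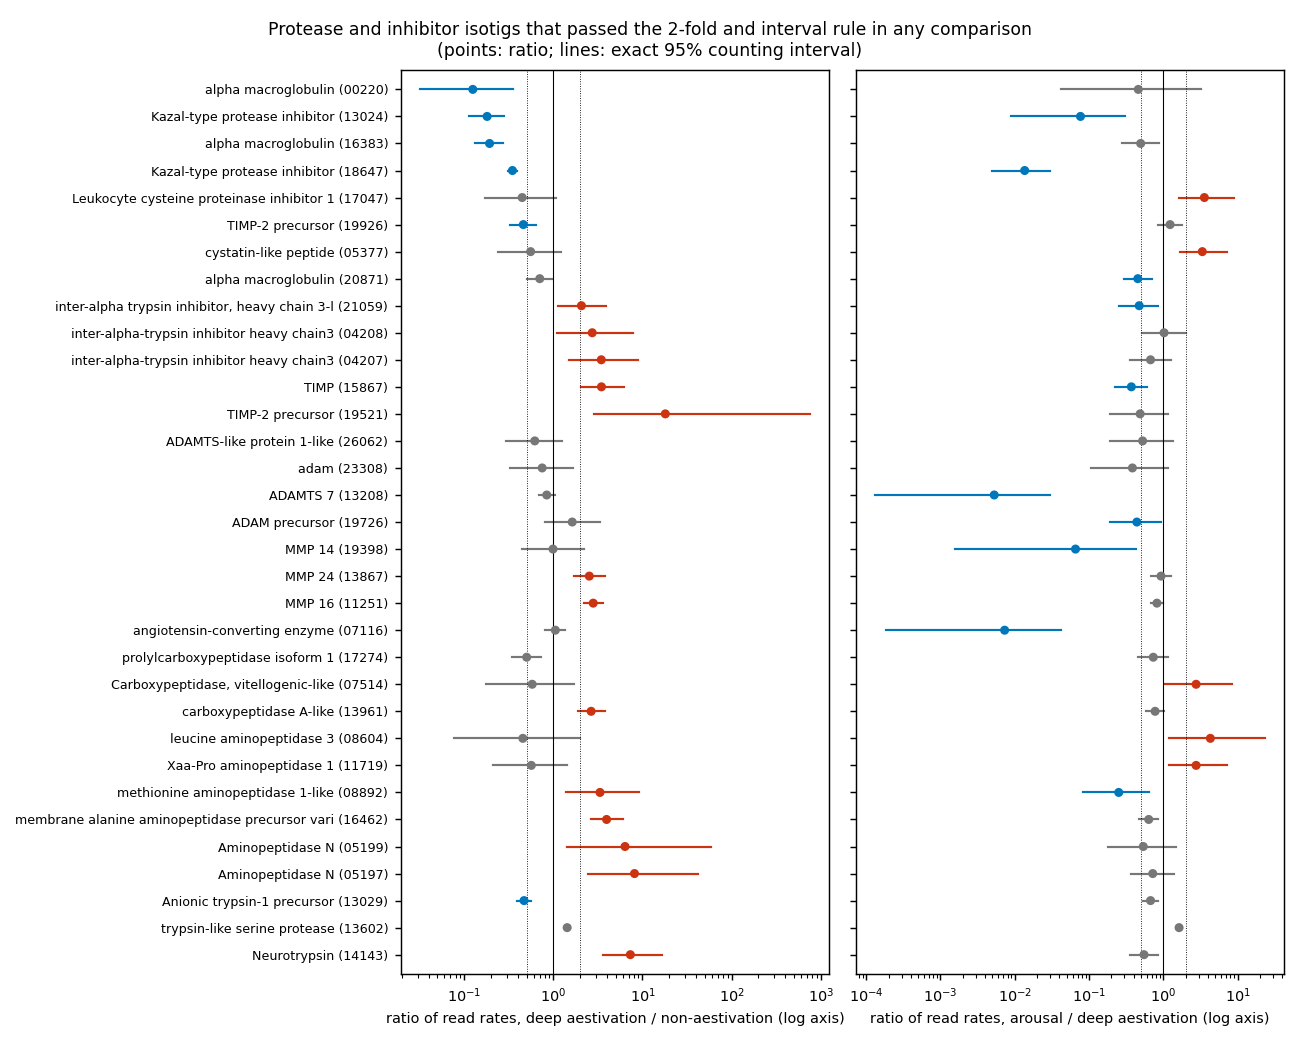
Ratio of read rates (log axis) with its exact 95% counting interval, for deep aestivation over non-aestivation and for arousal over deep aestivation, of the 33 proteases and inhibitors that passed the 2-fold and interval rule in any comparison. Red is higher and blue lower by that rule, grey did not pass, and dotted lines mark 2-fold. In the right panel ADAMTS7, angiotensin-converting enzyme and the Kazal-type isotig18647 lie farthest to the left.

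By stage of the highest level, 21 of the 53 compared members peaked in non-aestivation, as many in deep aestivation and 11 at arousal, that is 39.6%, 39.6% and 20.8%. Among matched isotigs these shares were 57%, 24.4% and 18.6%, and among all isotigs 44.8%, 28.4% and 26.9%. Arousal was the lowest stage for 26 members, 49.1%, beside 40.9% of matched and 33.2% of all isotigs. Of the 13 members that rose in deep aestivation, 8 were also higher in arousal than in non-aestivation with an interval that left out 1. Isotig04207 and isotig05199 were past 2-fold there too, at 2.32 and 3.42, but their intervals held 1. These ratios share the non-aestivation library, and the like share over all isotigs was not computed. Of the same 13, 3 fell again at arousal. The 3 were a TIMP (isotig15867), an inter-alpha-trypsin inhibitor heavy chain (isotig21059) and methionine aminopeptidase 1 (isotig08892).

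The 41 members under 20 reads held 85, 72 and 65 reads in all and a median of 4 reads each, too few for a comparison at this depth. They were 8 aminopeptidases, 7 ADAM or ADAMTS isotigs, 6 inhibitors, 5 matrix metalloproteinases, 5 carboxypeptidases, 4 serine proteases, 3 angiotensin-converting enzyme isotigs, 2 zinc metalloproteinases and 1 astacin. The astacin (isotig07422), a member of the family of digestive and developmental metalloproteases, had 0, 2 and 2 reads. No member was named as a serpin, meprin, tolloid or neprilysin. The median length was 1150 bases for compared members and 1132 for matched isotigs. Gene ontology terms for peptidase activity or proteolysis were attached to 14 of the 53, 26.4%, beside 1.62% of matched isotigs. Members were chosen by protease and inhibitor names, so a higher share follows from that choice.

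Matrix proteins are substrates of many of these enzymes. Of 45 compared isotigs 20 were lower (44.4%) and 2 higher in deep aestivation, with a median log2 ratio of -0.83, beside 18.6% of all and 24.2% of matched isotigs lower. In arousal against non-aestivation 24 were lower (53.3%) and 2 higher, with a median of -1.22, beside 18.8% and 25.6% lower. The most abundant, an alpha-5 collagen (isotig14428), had 2149, 1428 and 1353 reads. Hemicentin-1 (isotig19746), a large matrix protein, had 605, 52 and 11 reads and fell 5.13-fold from deep aestivation to arousal (2.65 to 10.9). FRAS1 (isotig16081), a basement membrane protein, had 364, 100 and 3 reads. The matrix protein isotigs summed to 7643, 3858 and 3754 reads, against 389, 637 and 628 for the matrix metalloproteinases. Both are reads of transcripts, not protein amounts, and a relation between them was not tested.

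Proteases outside the set made up short lists, and their differences from the set were not tested. Of all isotigs, 13.1% were higher and 18.6% lower in deep aestivation, and 8.06% and 8.93% in arousal against deep aestivation. Among matched isotigs these shares were 8% and 24.2%, then 7.63% and 9.71%. Cathepsins and legumain, proteases of lysosomes, had 1 of 11 isotigs higher (9.09%) and 3 lower (27.3%) in deep aestivation. In arousal against deep aestivation 3 were higher (27.3%) and 0 lower. The median log2 ratios were -0.08 and 0.38. The most abundant, legumain (isotig15138), had 929, 954 and 1258 reads. Cathepsin L2 (isotig13709) had 26, 17 and 156. Of 13 compared proprotein convertases and trypsin-fold proteases under other names, 1 was higher (7.69%) and 2 lower (15.4%) in deep aestivation. In arousal against deep aestivation 3 were higher (23.1%) and 2 lower (15.4%). Matriptase (isotig25725), a membrane serine protease of epithelia, had 422, 254 and 599 reads and rose 2.17-fold at arousal (1.87 to 2.53), and complement factor B (isotig00440) had 44, 20 and 142. Among 6 isotigs of BMP and TGF-beta signalling, which is no protease list, 1 was higher and 1 lower in deep aestivation and none was called in arousal against deep aestivation. The most abundant, follistatin-like 5 (isotig13149), had 225, 261 and 240 reads. Dipeptidyl and prolyl peptidases had 4 compared isotigs, 3 of them lower (75%) in deep aestivation and 2 higher (50%) in arousal against deep aestivation. Dipeptidyl peptidase III (isotig23123) had 22, 17 and 20 reads.

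Markers of other cell types were read against the shares over all isotigs in deep aestivation, 13.1% higher and 18.6% lower. Marker isotigs were all picked by their protein match, and among matched isotigs 8% were higher and 24.2% lower. No marker that defines the respiratory tree is known with confidence, so the tissue label could not be checked. Of 15 compared germ cell isotigs 5 were lower (33.3%) and 0 higher in deep aestivation, with a sperm acrosomal protein (isotig14766) most abundant at 35, 40 and 35 reads. The sperm protein bindin (isotig16157), chosen after its values were seen, had 61, 0 and 0 reads. The germ cell list summed to 439.9, 266 and 213 RPKM, with 2, 12 and 13 of its 36 isotigs at 0 reads. Gut digestive enzymes outside the set summed to 44.5, 35.8 and 38.4 RPKM over 9 isotigs, and 0 of 3 compared isotigs were called in any comparison. The most abundant, sucrase-isomaltase (isotig13501), had 21, 11 and 19 reads. Coelomocyte markers summed to 1275, 734 and 838 RPKM, with 6 lower (37.5%) and 1 higher of 16 in deep aestivation, and their most abundant isotig, a scavenger receptor cysteine-rich protein (isotig14875), had 308, 90 and 178 reads. Muscle markers had 4 higher (13.8%) and 5 lower (17.2%) of 29, near the shares over all isotigs. The higher share lay above that of matched isotigs and the lower share below it. The muscle list summed to 2010, 2365 and 1874 RPKM, with titin (isotig13411) at 762, 1101 and 809 reads. Cilia markers had 1 higher and 1 lower of 12 (8.33% each) and summed to 301, 204 and 138 RPKM, with a radial spokehead protein (isotig14093) at 93, 53 and 38 reads. In arousal against non-aestivation, germ cell, muscle, cilia and coelomocyte markers had 6 (40%), 9 (31%), 4 (33.3%) and 5 (31.2%) isotigs lower. The isotigs higher numbered 0, 2 (6.9%), 0 and 1 (6.25%). Of all isotigs 12.5% were higher and 18.8% lower, and of matched ones 6.68% and 25.6%. In arousal against deep aestivation the same lists had 2 (13.3%), 3 (10.3%), 1 (8.33%) and 0 lower. Those higher numbered 1 (6.67%), 2 (6.9%), 0 and 1 (6.25%). Of all isotigs 8.06% were higher and 8.93% lower in that comparison, and of matched ones 7.63% and 9.71%. The part of these cell types in the protease and inhibitor differences was not tested.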

How the data were processed

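Per the labels' protocols, libraries were made from fragmented poly(A) RNA with random primers, with no step that keeps the strand. The submitters' processing notes name CASAVA 1.5, and no aligner is named there or in the other sources used. The deposited tables give, per the file headers, each isotig's count of uniquely mapped reads, against a published transcriptome of the species. The authors also deposited its RPKM and the percent of its bases covered by a read. RPKM recomputed from the counts differed by a relative 1e-09 at most, and counts summed to the header totals. Isotigs not listed for a library were given 0 reads. Unique counting drops or splits reads of near-identical isotigs: 52 of the 94 members share a protein name with another member, and sums over names are given where they differ much.

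The members, role classes and lists were chosen with earlier results of these data known. Members were found by a text pattern on the best protein match, and sorted into classes by the first pattern that matched. Families within classes, and the names left out in the narrower set, were chosen after names and values were seen. The word hepsin matched cathepsin in the list of trypsin-fold proteases, so cathepsins were taken out of it. All 10896 isotigs with at least 20 reads were compared in 1 table with a pseudocount of 0.5 RPKM. Intervals are conditional binomial (Clopper-Pearson), and as no molecular identifiers were used, reads may be copies of 1 molecule. The rule and intervals were tested on simulated data. Named members are those past 2-fold with an interval that leaves out 1, the 15 with most reads and the most abundant of each class. From each list the most abundant isotig and the largest change among those reaching 100 reads in a library were named. Other members and list isotigs are given for completeness of a family. Reference gene symbols and accessions matched 0 of 94 members, so positions and sequences are not given. Python 3.11.15, numpy 2.4.6, pandas 2.3.3, scipy 1.17.1, matplotlib 3.10.9, R 4.3.3, edgeR 4.0.16 (TMM factors) and DESeq2 1.42.0 (median-of-ratios factors) were used.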

Additional observations from a re-analysis of the deposited data

How the results depend on the processing

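No paired analysis was possible because each stage has 1 library, and for the same reason no library could be left out. Counts are higher then lower members. Without a filter on reads, over 94 isotigs, they were 23 and 19 for deep against non-aestivation and 16 and 29 for arousal against deep aestivation. For arousal against non-aestivation they were 22 and 29. All isotigs were then called in 16.8% and 27.2%, 16% and 17%, and 16.5% and 27.3%. The 16 higher in arousal against deep aestivation, 17% of members, thus lay near the share of all isotigs. With at least 100 reads, over 30 isotigs, they were 6 and 5, 0 and 6, and 6 and 8, and all isotigs at that depth were called in 13.8% and 13.5%, 4.36% and 4.51%, and 13.1% and 12.5%. With isotigs of 1 protein name summed, over 41 features, they were 8 and 4, 2 and 10, and 7 and 12. The members' shares were 19.5% and 9.76%, 4.88% and 24.4%, and 17.1% and 29.3%. Over all features so summed they were 13.4% and 17.7%, 7.76% and 8.36%, and 13.1% and 17.7%. Taking out names of intracellular enzymes and non-proteases left 42 isotigs, with 2 higher at arousal against deep aestivation (4.76%), beside 8.06% of all isotigs. Centring on isotigs with a protein match left 4 lower in deep aestivation (7.55%), beside 11.6% of all isotigs. It turned the members' median to 0.34 in deep aestivation and 0.24 in arousal over non-aestivation, beside 0.24 and 0.27 over all isotigs. TMM, median-of-ratios factors and totals without the most read isotigs moved no member count by over 1.5 times, though the first pair moved the median of all isotigs by 0.11 and 0.12 (log2) in deep aestivation.

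Under the alternatives run, no class sum past 2-fold changed direction, and none within 2-fold passed 2-fold the opposite way. Changes of direction within 2-fold were not counted. The serine proteases in arousal over non-aestivation, at 1.99975, went to 2.00073 with at least 100 reads, 2.17 with TMM, 2.18 with median-of-ratios factors, 2.01 without the most read isotigs and 2.65 with centring. Centring took matrix metalloproteinases from 1.74 to 2.23 in deep aestivation and from 1.58 to 2.09 in arousal over non-aestivation. It took aminopeptidases from 1.63 to 2.09 in deep aestivation. The narrower set, chosen after values were seen, took carboxypeptidases from 1.08 (0.887 to 1.31) to 2.51 in deep aestivation. It took aminopeptidases from 1.63 (1.37 to 1.945) to 2.53. The whole carboxypeptidase class was near level, at 214, 217 and 212 reads. For single members, 24 calls were lost, 14 gained and 0 reversed, while 1450 combinations of member, comparison and alternative kept theirs. Members near 20 reads are limited by depth.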
